A study of Drosophila melanogaster with 3 samples.

Results

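The circadian clock genes per, tim, Clk, cyc, vri, Pdp1, cwo and cry of Drosophila melanogaster were examined for binding of Rel (Relish), the NF-κB family factor of the IMD immune pathway. The 8 genes were taken by name, and each matched a single gene among the 13945 protein-coding genes of the Ensembl annotation. All data come from ChIP-seq with an anti-GFP antibody, in which DNA fragments bound to the tagged protein are recovered and sequenced. The 3 samples are biological replicates of 1 group: whole wandering larvae of the third instar, males and females pooled, of a stable transgenic line whose Rel protein carries GFP at its N terminus. There was no second genotype, treatment or time, so no conditions were compared. The sources used here give neither the promoter that drives the tagged protein nor the time of day of collection. The control named in the labels was not analysed here. Whole larvae mix all tissues, so a peak cannot be assigned to clock cells or to any other cell type.

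The fly clock is a transcriptional loop. CLK and CYC, a pair of bHLH-PAS activators, bind E-boxes at per and tim, and the PER and TIM proteins then enter the nucleus and inhibit CLK and CYC. A second loop uses other targets of the same activators: VRI represses Clk and PDP1 activates it. CWO competes for E-boxes as a bHLH repressor, and CRY is the blue-light receptor that leads to loss of TIM after light. The E-box considered here is the palindrome CACGTG. Rel belongs to the factors that bind κB sites, G-rich at one end and C-rich at the other, and its processed N-terminal part acts in the nucleus after immune signalling.

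The files were 5 peak lists made by the authors on build dm6. The optimal list of 9419 peaks was derived with a measure of reproducibility between replicates (IDR). The pooled list held 30000 peaks called on all replicates together, and each replicate had a list of 30000 peaks. Every optimal peak was also in the pooled list with the same rank, so the optimal list holds the 9419 strongest pooled peaks. Being in it does not by itself show that a peak was found in each replicate. Read counts are absent from these lists, so depth is unknown. Ranks refer to the authors' signal value within a list, with 1 the strongest, and no p-value was computed for any gene. A summit was assigned to a gene when it lay in the gene body or within 5 kb of it, here called the gene window.

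By count, most optimal Rel summits at the 8 genes were in the windows of vri, cwo and Pdp1. The 8 windows held 40 optimal summits, and 36 of them belonged to these 3 genes: 18 to vri, 10 to cwo and 8 to Pdp1. The window of per held 2, those of Clk and cyc held 1 each, and those of tim and cry held none. An optimal summit was thus present in 6 of the 8 windows, against 63.4% of the windows of all protein-coding genes. Within 1000 bp of a transcription start site (TSS), 5 of the 8 genes had an optimal summit (per, cyc, vri, Pdp1 and cwo), against 37.9% of all protein-coding genes. No list test was made of these counts.

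The counts per list kept the same division. The pooled list had a summit in 6 of the 8 windows, against 72.8% of all genes. Replicate 1 had a summit in 6 windows (75.0% of all genes), replicate 2 in 7 (75.9%) and replicate 3 in 6 (75.1%). At vri the replicate lists held 32, 27 and 31 summits in replicates 1, 2 and 3. At Pdp1 they held 24, 33 and 33, and at cwo 17, 18 and 19. These 3 genes stood above the other 5 in every list, where no other window held more than 5 summits.

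**Figure D1:**
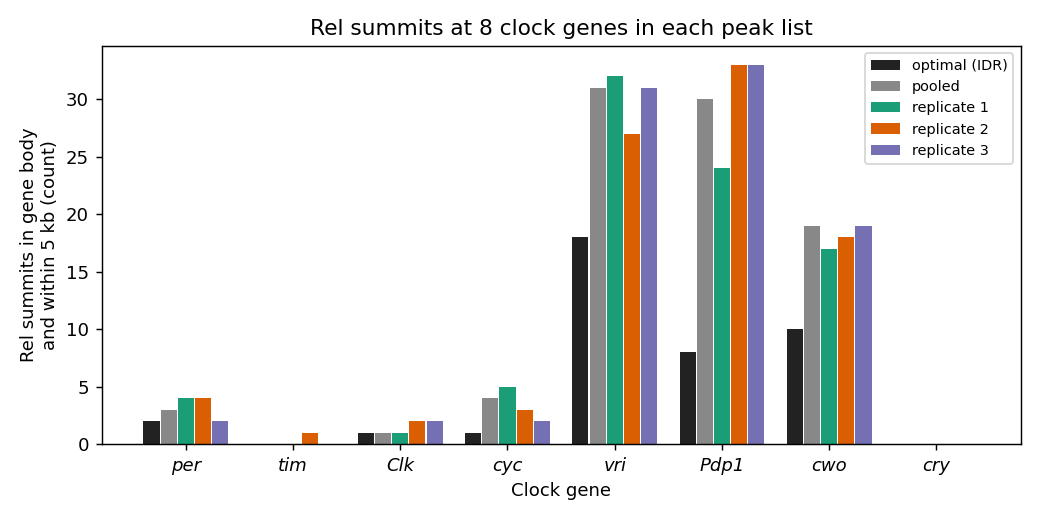
Number of Rel summits in the gene body and within 5 kb (y axis) for each of 8 clock genes (x axis) in the 5 peak lists (bars). The bars of vri, Pdp1 and cwo are the tallest in every list, tim has a bar of 1 in replicate 2 only, and cry has none.

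Window length differed between the genes and bears on these counts. The gene bodies ran from 2.17 kb at cyc to 55.9 kb at Pdp1, and 6 of the 8 genes were in the longest 25% of protein-coding genes, where 73.3% of windows had an optimal summit and the mean was 2.85 summits. Per 10 kb of window, vri had 5.58 optimal summits, cwo 4.45, Pdp1 1.21, per 1.16, cyc 0.822 and Clk 0.447. Over the merged windows of all protein-coding genes the density was 0.817 per 10 kb. The counts at vri and cwo were thus also high per length, while Pdp1 was closer to the genome-wide density. At least 18 optimal summits, as at vri, were found in the windows of 23 protein-coding genes (0.165%), and at least 10, as at cwo, in those of 158 (1.13%). At least 8, as at Pdp1, were found in the windows of 315 (2.26%).

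Most of these summits were of middling strength. The median rank of the 40 was 4427 among 9419, and 8 of the 40 were in the top 25% of the optimal list. All 8 belonged to vri (5) or cwo (3). The best rank was 314 at cwo and 713 at vri, followed by 2447 in the Clk window, 3686 at Pdp1, 4258 at per and 5508 at cyc.

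**Figure D2:**
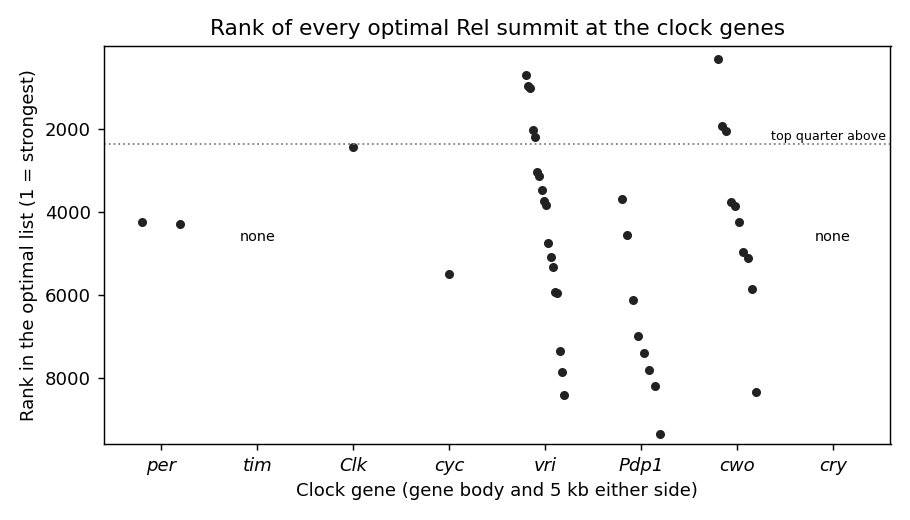
Rank of each of the 40 optimal summits by signal (y axis, 1 at the top, 9419 at the bottom) for each clock gene window (x axis); points are spread sideways for visibility. The dotted line marks the top 25% of the list, which holds 5 summits of vri and 3 of cwo.

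The windows of the activator genes Clk and cyc held 1 optimal summit each. Clk (FBgn0023076, chr3L:7763233-7775603, minus strand) had no optimal summit in its body, and its window held 1, at chr3L:7760102-7760761. That summit lay 61 bp from the TSS of Hn, the phenylalanine hydroxylase gene, and 6838 bp downstream of the nearest Clk TSS (Clk-RG and Clk-RH). It ranked 2447 in the optimal list and 1985, 3304 and 2818 in replicates 1, 2 and 3. Neither annotated TSS of Clk had a summit of any list within 1000 bp.

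The cyc gene (FBgn0023094, chr3L:19813770-19815938, minus strand) had an optimal summit 263 bp downstream of its only TSS, in the first intron (chr3L:19815511-19815737, rank 5508). A replicate summit within 100 bp was found in replicates 1 and 2, at ranks 4191 and 6659. In replicate 3 the nearest summit was 90 bp from the TSS (rank 5257), too far from the optimal summit to count as the same peak. The pooled list held 3 more summits in the window, of ranks 9659 to 21980, and 2 of them lay at the start sites of the neighbouring genes Fibp and Deaf1.

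At per, the clock repressor gene (FBgn0003068, chrX:2685580-2692780, plus strand), both optimal summits lay upstream of the single TSS and none in the gene. The nearer was 308 bp upstream (chrX:2684992-2685468, rank 4258) and the farther 953 bp upstream (chrX:2684482-2684809, rank 4302). Their relative signal, the replicate's signal divided by its median over matched optimal peaks, was 0.690, 1.31 and 1.11 in replicates 1, 2 and 3 for the nearer summit. For the farther summit it was 0.694, 1.47 and 0.964. Both were thus close to the median optimal peak, with replicate 1 the lowest. The farther summit was 782 bp from the start of lncRNA:CR44470, closer than to per. The pooled list added 1 weak summit at per, at rank 17588 and 107 bp upstream of the TSS.

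The farther per summit was 1 of 2 optimal clock gene summits with a match to the κB consensus within 100 bp. A pair of overlapping matches of 10 bases, GGGGAATCCC (chrX:2684603-2684612) and GGGAATCCCC (chrX:2684604-2684613), began on adjacent bases, the nearer 14 bp from the summit. The 201 bases centred on the summit are shown because they carry this site, with the joined match in capitals (chrX:2684527-2684727, dm6, plus strand; this and later sequences are from the RefSeq release 6 genome):
per upstream: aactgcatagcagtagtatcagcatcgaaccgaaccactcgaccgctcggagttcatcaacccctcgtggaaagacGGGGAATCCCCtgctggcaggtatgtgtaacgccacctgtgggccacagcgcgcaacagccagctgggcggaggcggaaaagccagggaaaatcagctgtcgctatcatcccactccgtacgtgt

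The per window also held a summit seen in replicate 2 alone, 602 bp downstream of the TSS in the first intron (chrX:2686088-2686232, rank 6719 in that replicate). A further κB match lay 11 bp from it, on the minus strand, and is shown in capitals within 30 bases of the plus strand (chrX:2686152-2686181):
per intron: caatgctccgGGAATGCCCCaccacttcct
No summit of the optimal or pooled list was at this place.

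At tim, which encodes the partner of PER (FBgn0014396, chr2L:3493986-3508119, minus strand), none of the 3 annotated TSSs had an optimal summit nearer than 26540 bp or a pooled summit nearer than 23443 bp. The window held a summit in replicate 2 only (chr2L:3507184-3507613, rank 10282 of 30000), 181 bp upstream of the TSS shared by tim-RB and 5 other transcripts. An E-box lay 18 bp from this summit, inside the first exon of tim-RO. It is shown in capitals within 30 bases (chr2L:3507405-3507434, dm6, plus strand), since E-boxes at tim are known targets of CLK and CYC:
tim E-box: gggaaatcggctCACGTGtaatcacaacgt
As replicates 1 and 3 had no summit in the window, this peak was not shared between replicates.

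The vri gene (FBgn0016076, chr2L:5288944-5311223, plus strand), which encodes the bZIP repressor of Clk, had the most optimal summits of the 8 genes, while Pdp1 had more than vri in the lists of replicates 2 and 3. Its 18 optimal summits fell in 12 intervals, 5 of which held several summits, the widest covering 1952 bp (chr2L:5291864-5293815). All 17 summits inside the gene lay in the first intron of vri-RE, the transcript with the most upstream start. First-intron sequence made up 81.0% of the gene body. The last summit was 17842 bp from the 5′ end of the gene, and none lay in the part of the gene beyond that.

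The strongest vri peak was 2439 bp downstream of the vri-RE start (chr2L:5290889-5291710, rank 713). Its relative signal was 3.34, 4.97 and 4.36 in replicates 1, 2 and 3 (mean 4.22 ± 0.825, SD, n = 3). All 3 replicates placed it above the median optimal peak by a wide margin. A summit 4439 bp downstream of the same start ranked 960, with relative signal 2.83, 2.53 and 4.37. Next was a summit 476 bp upstream of the vri-RC start, at rank 1025, with relative signal 2.91, 3.76 and 3.00. The remaining 2 in the top 25% were a summit 179 bp upstream of the start shared by vri-RA, vri-RD and vri-RF (rank 2030, 1.86 ± 0.215) and one 3832 bp downstream of vri-RE (rank 2186, 1.73 ± 0.828). The last of these was uneven between replicates, from 0.922 in replicate 2 to 2.58 in replicate 1.

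The other 13 vri summits were weaker, at ranks 3052 to 8421. They included a summit 1159 bp upstream of vri-RE and 63 bp from the start of lncRNA:CR44742 (rank 3749), and 3 in the intron nearest to lncRNA:CR45730, a noncoding gene on the other strand (ranks 3052, 3840 and 5929). A summit lay 20 bp downstream of the vri-RA, vri-RD and vri-RF start (rank 5093, relative signal 0.909 ± 0.134), and another 258 bp upstream of vri-RC (rank 7854), with no match in replicate 1. Of the summits 933 and 1136 bp downstream of the vri-RA start, the first was matched in replicate 1 only. The second had a relative signal of 0.402, 0.974 and 1.37. In replicates 2 and 3 the stronger summit there lay between these places, 1062 and 1055 bp downstream, and was matched to the second. The values of the second summit are thus not from the same place in all replicates. The pooled list added 13 summits at vri, at ranks 14420 to 25343.

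One of the weakest vri peaks carried the only other κB match among the 40 summits. It lay 1794 bp upstream of the vri-RA start (chr2L:5303738-5303990, rank 7370), with relative signal 0.384, 0.667 and 0.821, below the median optimal peak in all 3 replicates. The match GGGGTATCCC (chr2L:5303864-5303873) was 8 bp from the summit, and an E-box was 81 bp from it. The 201 bases centred on the summit are shown because both motifs occur in them, κB first and E-box second, in capitals (chr2L:5303756-5303956, dm6, plus strand):
vri intron: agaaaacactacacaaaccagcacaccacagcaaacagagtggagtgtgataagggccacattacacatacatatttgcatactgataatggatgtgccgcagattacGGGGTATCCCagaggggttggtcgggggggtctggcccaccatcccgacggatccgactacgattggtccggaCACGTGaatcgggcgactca

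Pdp1 (FBgn0016694, chr3L:7811458-7867369, minus strand), whose bZIP product activates Clk, had 8 optimal summits of which none was in the top 25%. They ranked from 3686 to 9351, with a median of 7194. The strongest was 2459 bp downstream of the start of Pdp1-RF and Pdp1-RO (chr3L:7864636-7865272), with relative signal 0.864, 1.56 and 1.10 in replicates 1, 2 and 3. The next, 3217 bp downstream of the same start (rank 4552), differed more between replicates, at 1.21, 0.355 and 1.22. Another, 4984 bp downstream of it (rank 6127, 0.761 ± 0.104), had an E-box 63 bp away.

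A cluster of 3 weak summits surrounded the start shared by Pdp1-RB and 6 other transcripts. They were 833 bp upstream (rank 8199), 132 bp upstream (rank 9351) and 584 bp downstream of it (rank 7815, with no match in replicate 2). The summit at rank 9351 was near the bottom of the optimal list, with relative signal 0.348, 0.382 and 0.587. A summit 2250 bp upstream of Pdp1-RD and Pdp1-RJ (rank 6990) had an E-box 59 bp away. The eighth was outside the gene, 792 bp from the start of CG32369 (rank 7398). The pooled list held 22 further summits at Pdp1, at ranks 9658 to 29434, more than at any of the other 7 genes.

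The strongest peak of all 8 genes was at cwo (FBgn0259938, chr3R:10388258-10400752, plus strand), the gene of the E-box repressor. It lay 3838 bp downstream of the single TSS, in the first intron (chr3R:10391750-10392444, rank 314). Relative signal was 8.34, 7.33 and 7.56 in replicates 1, 2 and 3 (mean 7.74 ± 0.526, SD, n = 3), and the ranks were 228, 377 and 318. It had no match to the κB consensus within 100 bp. A relaxed form, which accepts any pyrimidines at the last 2 positions, matched at a pair of adjacent positions on the minus strand, the nearer 8 bp from the summit. The window is shown because it is the strongest at a clock gene, with the relaxed matches in capitals as read on the plus strand (chr3R:10391996-10392196, dm6):
cwo intron: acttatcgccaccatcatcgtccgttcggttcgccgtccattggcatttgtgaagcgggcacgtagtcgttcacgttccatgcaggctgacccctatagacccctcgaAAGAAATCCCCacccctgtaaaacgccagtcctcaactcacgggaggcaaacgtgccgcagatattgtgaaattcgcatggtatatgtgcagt

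The other 9 cwo summits were at ranks 1932 to 8336. A summit 740 bp downstream of the TSS, in the 5′ UTR, had relative signal 1.95, 1.81 and 1.98 (rank 1932), and one 2826 bp downstream had 1.95, 1.71 and 1.97 (rank 2056). The 3 replicates lay close together at both, with SDs of 0.0866 and 0.143. At the TSS itself, a summit 44 bp downstream ranked 4966 (0.947 ± 0.184). Summits 3028, 4521, 5274 and 6105 bp downstream ranked 4245, 5856, 8336 and 3761. The one at 4521 bp had no match in replicate 2. Upstream, a summit at 1116 bp was 243 bp from the start of lncRNA:CR44938 (rank 3861), and one lay at 3584 bp (rank 5117).

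E-boxes lay at a pair of cwo summits, both outside the strongest peak. At the summit 3584 bp upstream an E-box was 37 bp away and a relaxed κB match 5 bp away, and at the summit 6105 bp downstream an E-box was 32 bp away. The upstream window is shown because both motifs occur in it, the relaxed κB match first, in capitals (chr3R:10384574-10384774, dm6, plus strand):
cwo upstream: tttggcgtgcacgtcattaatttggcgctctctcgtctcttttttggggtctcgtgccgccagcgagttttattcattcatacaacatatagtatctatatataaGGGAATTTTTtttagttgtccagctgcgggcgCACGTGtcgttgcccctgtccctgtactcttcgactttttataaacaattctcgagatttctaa
The pooled list added 9 weaker summits at cwo, at ranks 9787 to 25952.

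**Figure D3:**
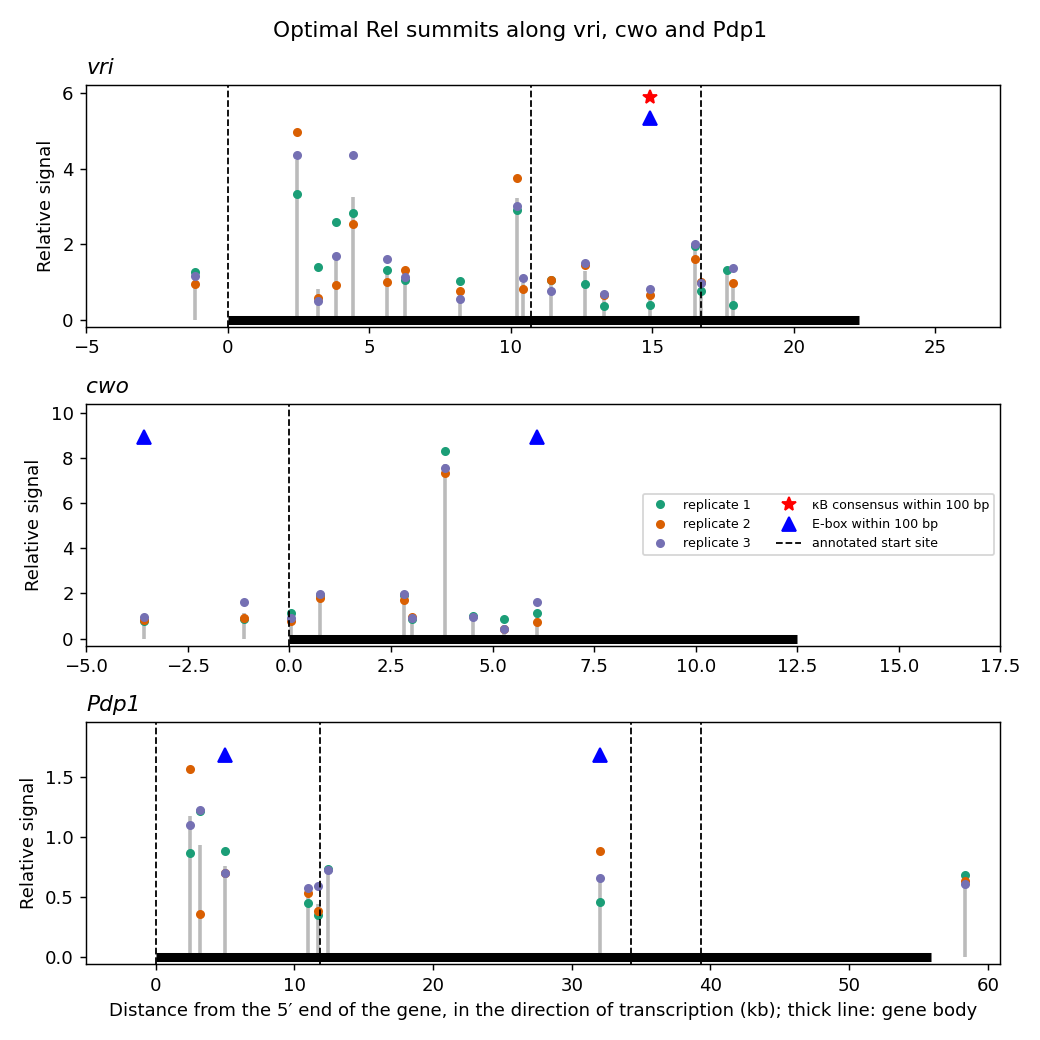
Optimal Rel summits along vri, cwo and Pdp1: distance from the 5′ end of the gene in the direction of transcription in kb (x axis) against relative signal (y axis, a different scale in each panel). Points are replicates, grey lines their mean, dashed lines annotated start sites, the thick line the gene body, stars summits with a κB consensus match and triangles summits with an E-box within 100 bp. The cwo peak at 3838 bp stands above its neighbours in all 3 replicates.

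The light receptor gene cry (FBgn0025680, chr3R:19212154-19215442, plus strand) had no summit in its window in any of the 5 lists. The optimal summit nearest to its TSS was 13266 bp away (rank 8655), and the nearest pooled summit 12236 bp away (rank 23787). Among the 8 genes only cry was without a summit in all lists.

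The strongest peaks of cwo and vri stood apart from the rest. In each replicate cwo (7.33 to 8.34) exceeded vri (3.34 to 4.97), and vri exceeded the Clk window (1.33 to 1.90), with no overlap between these ranges. Relative signal in the Clk window was 1.57 ± 0.294 (SD, n = 3), at Pdp1 1.17 ± 0.352 and at per 1.04 ± 0.317, and at cyc 1.09 in replicate 1 and 0.739 in replicate 2. The range of the Clk window overlapped that of Pdp1 (0.864 to 1.56) and lay above those of per (0.690 to 1.31) and cyc, though only just above per. The ranges of Pdp1, per and cyc overlapped, so their order is not separated from the spread. Each peak was chosen as the strongest among 18 optimal summits at vri, 10 at cwo, 8 at Pdp1 and 2 at per. The Clk and cyc windows offered 1 each. The signal used for this choice was made from the same 3 replicates, so the replicate values are not independent of it. With 3 libraries of 1 group and peaks sharing a library, no test was made of these differences.

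**Figure D4:**
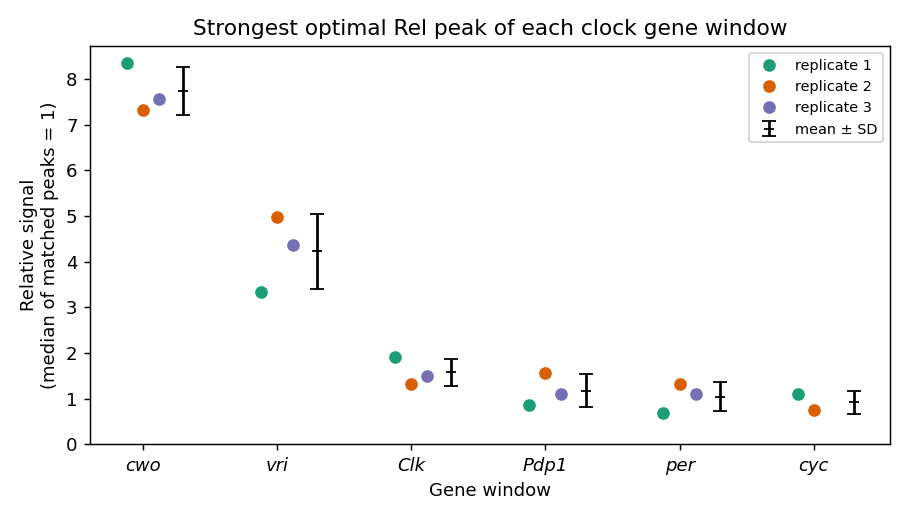
Relative signal (y axis; 1 is the replicate's median over matched optimal peaks) of the strongest optimal peak in each window (x axis) in replicates 1, 2 and 3 (points), with mean ± SD (bars; n = 3, for cyc n = 2). The cwo points lie from 7.33 to 8.34, above the vri points from 3.34 to 4.97, and those of the other 4 windows are all below 2.

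Of the 40 optimal summits, 35 (87.5%) had a summit within 100 bp in all 3 replicate lists, against 90.4% of all optimal summits. A further 4 were matched in 2 replicates and 1 in 1 replicate. The optimal list was made from these replicates, so the overlap is not independent of it. The lists do not show that clock gene peaks were more or less shared between replicates than others.

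Inside the genes, 31 of 33 optimal summits lay in a first intron, against 54.5% of all optimal summits within protein-coding genes. The other 2 of the 33 were in the first exon of cwo. Among the 31, the vri summit at rank 5093 and the Pdp1 summit at rank 7815 lay in exons of other transcripts. First introns covered 87.7% of Pdp1, 81.0% of vri and 63.4% of cwo, and the part of this length in the share was not tested. No optimal summit of the 8 genes was classed as coding exon or 3′ UTR. By class, 24 of the 40 were intronic, 11 were within 500 bp of a TSS of any gene, 3 in a 5′ UTR and 2 intergenic.

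Alternative start sites differed in their summits. The 8 genes have 16 annotated TSSs, and 6 (37.5%) had an optimal summit within 500 bp, against 32.2% of all TSSs of protein-coding genes, so the share was near the background. These were the single TSSs of per, cyc and cwo, the vri-RC start, the start of vri-RA, vri-RD and vri-RF, and the start of Pdp1-RB and its 6 partners. The most upstream start of vri, that of vri-RE, had its nearest optimal summit 1159 bp away, and its nearest pooled summit 546 bp away at rank 24373. The Pdp1-RF and Pdp1-RO start had a pooled summit at 170 bp, at rank 9658, and the Pdp1-RD and Pdp1-RJ start one at 454 bp, at rank 28072. For the Pdp1-RC and Pdp1-RL start the nearest optimal summit was 7305 bp away. The same 16 positions were found in the RefSeq annotation.

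κB matches were not frequent at these summits. The consensus occurred within 100 bp of 2 of 40 optimal summits (exact Clopper-Pearson 95% interval 0.611% to 16.9%), against 7.80% of all optimal summits. The relaxed form occurred at 7 (17.5%), against 20.6%. Both shares were near the background. Intervals given here cover counting error only, as summits and sites of a gene are not independent. In the whole windows the consensus matched at 13 positions, 5 of them at per, 2 each at tim, vri, Pdp1 and cwo, and none at Clk, cyc and cry. That is 0.619 per 10 kb, against 1.01 in the windows of all protein-coding genes. Of the 13, 3 lay within 100 bp of an optimal summit (23.1%, interval 5.04 to 53.8), against 8.17% of such matches in all windows. They were 2 at per, which overlap, and 1 at vri. Optimal summits were denser at per (1.16 per 10 kb) and vri (5.58) than over all windows (0.817). The part of this density in the share was not tested.

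The count of E-boxes at summits depended on the distance allowed. CACGTG, counted once per position as it reads alike on both strands, was within 100 bp of 5 of 40 optimal summits (12.5%, exact Clopper-Pearson 95% interval 4.19 to 26.8), against 2.72% of all optimal summits. They were 2 summits of cwo, 2 of Pdp1 and 1 of vri. Within 50 bp the count fell to 2 of 40, both at cwo, against 1.27% of all optimal summits, and within 250 bp it was 8 of 40, against 7.05%. The windows themselves held 52 E-boxes, or 2.48 per 10 kb against 1.26 in the windows of all protein-coding genes, led by cwo (15), Pdp1 (14) and per (11). Of the 52, 5 (9.62%, interval 3.20 to 21.0) were within 100 bp of an optimal summit, against 1.81% of E-boxes in all windows. None of the 11 E-boxes at per was near an optimal or pooled summit. The intervals cover counting error only, and summits of a gene share their sequence context and are not independent. Whether the density of E-boxes in these genes accounts for the count at summits was not tested. Optimal summits were also denser at vri (5.58 per 10 kb), cwo (4.45) and Pdp1 (1.21) than over all windows (0.817). The part of this density in the share of E-boxes near a summit was not tested.

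Other genes of the clock were compared with the same background of 37.9% with an optimal summit within 1000 bp of a TSS. Among 12 kinases, phosphatases and ubiquitin ligases of the clock, 6 had such a summit. The highest were at sgg, the GSK-3 kinase that phosphorylates TIM (rank 742, relative signal 4.18 ± 0.886, SD, n = 3), wdb, a PP2A subunit (rank 2080, 1.83 ± 0.534), ctrip, a ubiquitin ligase (rank 2796, 1.42 ± 0.0966), and mts, the PP2A catalytic subunit (rank 3573, 1.21 ± 0.383). dco, which encodes the casein kinase Doubletime that phosphorylates PER, had none within 1000 bp and 2 in its window.

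Among 9 regulators of clock gene expression, 7 had a summit near a TSS, all except Usp8 and Hr51. The strongest was at kay, the Fos gene (rank 239, 9.09 ± 1.30), then Eip75B, a nuclear receptor gene (rank 753, 4.14 ± 0.536), CrebB (rank 2149, 1.77 ± 0.666) and cbt (rank 2324, 1.68 ± 0.178). Eip75B had 53 optimal summits in its window and kay 24, both more than vri. Among 9 genes of clock output, 2 had a summit: Dh44, a neuropeptide gene (rank 551, 5.15 ± 0.429), and ITP (rank 4806, 0.935 ± 0.110). Pdf, the main neuropeptide of the clock neurons, and its receptor gene Pdfr had none in their windows. In all, 15 of these 30 genes had a summit near a TSS. The lists are short and were not tested. These counts were not adjusted for window length or for the number of start sites, which ran from 1, as at cbt, to 11 at sgg.

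By strongest optimal summit in the window, the genes next to cwo in rank were CG9447 and the serpin genes Spn42Da, Spn42Db, Spn42Dc and Spn42Dd above, which share a peak at rank 313, and bchs, CG14000 and CG9021 below, at rank 316. Next to vri were svp, CG17738 and Sfp87B at rank 712 and MYPT-75D at rank 714. The likeness is that of a single rank in the optimal list. The strongest peaks of vri and cwo were in no other protein-coding gene's window, while those of per, Clk, cyc and Pdp1 were shared with the windows of 2, 1, 3 and 1 neighbouring genes.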

How the data were processed

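Peaks were called by the authors on build dm6 for each replicate and for all replicates together, each with a control, and the optimal list was derived from these by IDR, per the file headers. Neither aligner nor caller, nor the IDR threshold, is given in the sources used here. The signal of each peak is the deposited value of the authors' caller, on a scale that differs between lists, so it was used for ranks and for relative signal. The deposited −log10 q-value was not used for ranking, because many peaks are tied.

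Summits were counted 1-based and compared with Ensembl release 115 and RefSeq release 6 sequence, whose arms contained all peaks. Nearest-TSS calls used all annotated genes other than transposable elements. Relative signal used the nearest replicate summit within 100 bp. Motifs were searched on both strands in 201 bp windows. κB distances run to the nearest base of a match. The functions recovered the planted genes, motifs and matches in simulated data. Python 3.11.15, pandas 2.3.3 and scipy 1.17.1 were used.

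Named genes were all 8 clock genes, up to 4 genes of highest signal in each other clock list, neighbours of listed summits, and genes next in rank. dco, Pdf, Pdfr, the list members without a summit and the counts at Eip75B and kay were named after their values were seen. The genes and lists were chosen with earlier results of these data known. Other distances, lists, motif forms and annotations, and leaving out each replicate, were tried as alternatives.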

Additional observations from a re-analysis of the deposited data

How the results depend on the processing

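The number of clock genes with an optimal summit near a TSS was 5 within 500, 1000 or 5000 bp, with the pooled list and with RefSeq, and 4 to 5 with a replicate left out, where cyc was lost without replicate 1 or 2. Among the optimal peaks above the median signal it was 3. The share of all protein-coding genes is given within 1000 bp and for the optimal list only (37.9%). That share cannot fall as the distance grows, so the same count of 5 at 5000 bp stands against a background not given here. The 40 summits became 88 in the pooled list and 21 above the median signal, by construction of these lists, and 33 to 52 with gene bodies only or 10 kb. They were 36 to 37 with a replicate left out. The optimal list was not derived anew for this: optimal summits matched within 100 bp in both other replicates were kept. Summits matched in 3 replicates were 29 within 50 bp, 40 within 250 bp and 26 in the top of each replicate list. The share of all optimal summits is given at 100 bp only (90.4%). These counts therefore do not show whether clock gene summits were shared more or less than others. κB matches rose from 2 to 7 with the relaxed form, and were 2 in other windows, for which no share of all optimal summits is given. E-boxes went from 5 to 2 within 50 bp and to 8 within 250 bp. Leaving out a replicate could not change the κB or E-box count within 100 bp, as those summits were matched in all 3. Divided by the median of all peaks of a list, which is lower, relative signal was 26.3 at cwo, 14.4 at vri, 5.34 in the Clk window, 4.01 at Pdp1, 3.54 at per and 3.13 at cyc, in the same order. Other clock genes with a summit were 13 to 21 of 30 over all settings, also with a background at 1000 bp only. No paired analysis was possible because the series has 1 group. Groups of 3 were not examined for outlying samples. Depth is unknown and limits all counts of weak peaks.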
